A study of Mus musculus with 12 samples.

Results

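The cytosolic ribosomal protein genes, which encode the protein subunits of the ribosome outside mitochondria, were followed in sorted mouse microglia. Members were chosen by name alone, as symbols of the form Rps or Rpl followed by a number (with a final a, x or l allowed), Rplp0, Rplp1, Rplp2 and Rpsa. The rule found 81 of the 24328 gene symbols in the table. They comprised 32 genes of the small subunit and 49 genes of the large subunit. Of these, 78 passed the filter on low counts, 1 had too few counts, and 2 had no count in any library.

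The ribosome translates messenger RNA into protein. Its small subunit reads the message and its large subunit joins amino acids, and each subunit carries its own set of proteins around a core of ribosomal RNA. Most of these proteins are present in a single copy per ribosome, and their messages are held in balance with each other. The messages begin with a run of pyrimidines called a 5′ TOP motif, through which mTORC1 signalling and the RNA-binding protein LARP1 govern their translation and stability. Microglia are the resident macrophages of the brain, and macrophages are known to alter their translation when activated.

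RNA-seq counts were available for 3 groups of 4 mice, all wild-type BALB/c. Allogeneic recipients had been given a lethal dose of radiation, then 5000000 bone marrow cells and 300000 T cells from an allogeneic donor, and were examined on day 14, when graft-versus-host disease (GvHD, an attack of donor T cells on the host) peaks per the labels. Syngeneic recipients had the same irradiation, cell doses and day, with syngeneic cells. Control mice were untransplanted. The sources used here do not give the donor strain of the allogeneic cells, or say if control mice were irradiated. The transplanted groups thus differ from control mice in marrow and T cells together, and in irradiation too if control mice had none, and these cannot be told apart.

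The allogeneic libraries held 35559202 to 42641198 counts, the syngeneic ones 36422729 to 46126118 and the control ones 32652208 to 45439607. A gene with 0 counts in a library may stand at up to 0.0650 to 0.0919 per 1000000 counts of the library (3 counts), for counting error only. Levels are given as CPM, counts per 1000000 of the library size after scaling by TMM factors. The TMM factors fell in separate ranges, 0.844 to 0.893 in allogeneic, 1.002 to 1.021 in syngeneic and 1.10 to 1.16 in control libraries. All 10 microglia markers were detected in every group, and their summed level was 31319 to 32500 CPM in allogeneic, 42993 to 45818 CPM in syngeneic and 45229 to 51612 CPM in control libraries. Within groups, Spearman correlations between libraries were 0.975 to 0.984.

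Ribosomal protein reads took up the largest share of allogeneic libraries, a smaller share of syngeneic libraries and the smallest share of control libraries. They made up 5.49%, 5.31%, 5.18% and 5.63% of counts in the allogeneic libraries, 3.40%, 3.35%, 3.48% and 3.22% in the syngeneic libraries, and 1.92%, 1.85%, 1.83% and 2.06% in the control libraries. No value of a group reached into another group. The means were 5.40 ± 0.201%, 3.36 ± 0.107% and 1.91 ± 0.107% in allogeneic, syngeneic and control libraries (SD, n = 4 each). On the CPM scale, the summed level was 61661 ± 1249 CPM in allogeneic, 33386 ± 1328 CPM in syngeneic and 16908 ± 890 CPM in control libraries. The allogeneic sum was thus 1.85-fold the syngeneic one and 3.65-fold the control one on the CPM scale, and 1.61-fold and 2.82-fold as a share of raw counts. The syngeneic sum was 1.97-fold the control sum in CPM and 1.76-fold as a share. In RNA from sorted populations, fewer cells of a type and less RNA per cell cannot be told apart.

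**Figure D1:**
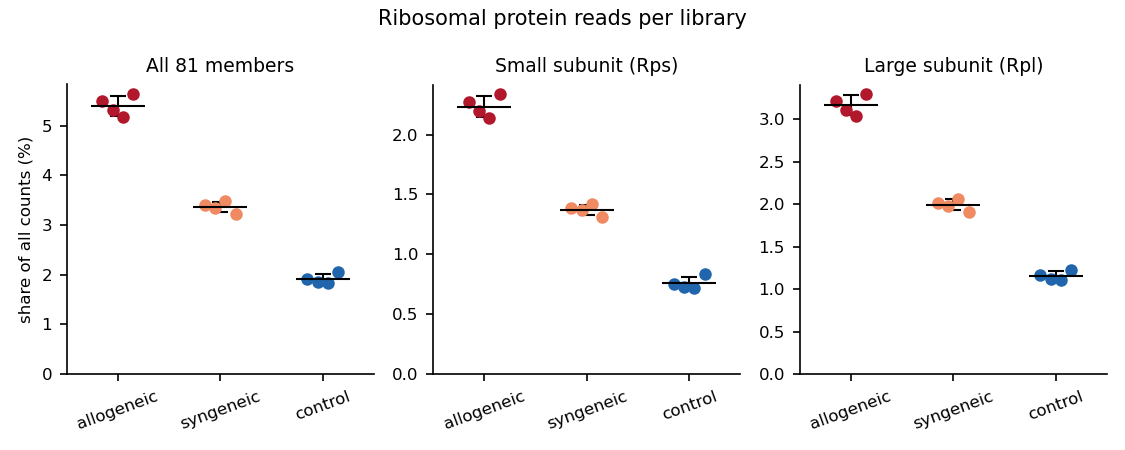
Share of all counts (%) taken by ribosomal protein genes in each library, for all 81 members and for each subunit. Points are libraries, and bars give the mean and SD of 4 libraries. The allogeneic libraries lie between 5.18% and 5.63%, above the syngeneic libraries at 3.22% to 3.48% and the control libraries at 1.83% to 2.06%.

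Both subunits took part. Small subunit genes held 2.23 ± 0.0880% of counts in allogeneic, 1.37 ± 0.0433% in syngeneic and 0.760 ± 0.0532% in control libraries (SD, n = 4 each). Large subunit genes held 3.17 ± 0.113% in allogeneic, 1.99 ± 0.0643% in syngeneic and 1.15 ± 0.0542% in control libraries. The ratio of large to small subunit counts was 1.42 ± 0.00548 in allogeneic, 1.45 ± 0.00501 in syngeneic and 1.52 ± 0.0365 in control libraries. The allogeneic values of that ratio, 1.41 to 1.43, lay below the syngeneic ones, 1.45 to 1.46, and the control ones, 1.47 to 1.54.

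Gene by gene, the shift was nearly uniform in direction. In allogeneic against syngeneic microglia, edgeR's quasi-likelihood test called 73 of the 78 tested members higher and 0 lower, where 10.1% of all tested genes were called higher and 6.38% lower. In syngeneic against control microglia, 73 of 78 were called higher and 0 lower, against 26.4% and 25.6% of all tested genes. In allogeneic against control microglia, the counts were again 73 higher and 0 lower of 78, against 28.2% and 29.1% of all tested genes. The same 73 genes were called in every comparison. Of the members, 1 (Rps27, in syngeneic minus control) was lower at an unadjusted p under 0.05 with edgeR, and DESeq2 and limma-voom each called 1 lower in that comparison and 0 in the others. These comparisons share groups, so the 3 counts are not independent of each other. With library totals in place of TMM factors, the calls over all genes split as 844 higher and 2108 lower in allogeneic minus syngeneic (1288 and 810 with TMM), 2723 and 3968 in syngeneic minus control (3357 and 3253 with TMM), and 2453 and 5259 in allogeneic minus control (3576 and 3697 with TMM), while all 73 members were still called higher in each.

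The median log2 fold change over the tested members was 0.88 in allogeneic minus syngeneic, 0.989 in syngeneic minus control and 1.88 in allogeneic minus control, and the medians over all tested genes were -0.0149, -0.028 and -0.0688. The quartiles of the members were close, from 0.786 to 1.01 in allogeneic minus syngeneic, 0.869 to 1.09 in syngeneic minus control and 1.72 to 2.05 in allogeneic minus control. Scaled by library totals the member medians were 0.679, 0.82 and 1.51, with all genes at -0.218, -0.195 and -0.438. A change of scaling shifts all genes by nearly the same amount, so it cannot test the distance between members and all genes. In allogeneic minus syngeneic, small subunit genes had a median of 0.886 with 30 of 32 called, and large subunit genes 0.877 with 43 of 46 called.

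All 4 libraries of the first-named group stood above all 4 of the second for 74 of 78 members in allogeneic minus syngeneic, 74 in syngeneic minus control and 73 in allogeneic minus control. Of all tested genes, 12.6%, 24.6% and 26.2% did so. For 73 of the 78 members, every allogeneic library exceeded every syngeneic library and every syngeneic library exceeded every control library, an order that 6.88% of tested genes followed. The members also varied little within a group. The median coefficient of variation of the 73 called members was 3.35% in allogeneic, 5.51% in syngeneic and 6.86% in control libraries, against 20.7%, 18.9% and 18.1% over all tested genes, many of which have far fewer counts.

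**Figure D2:**
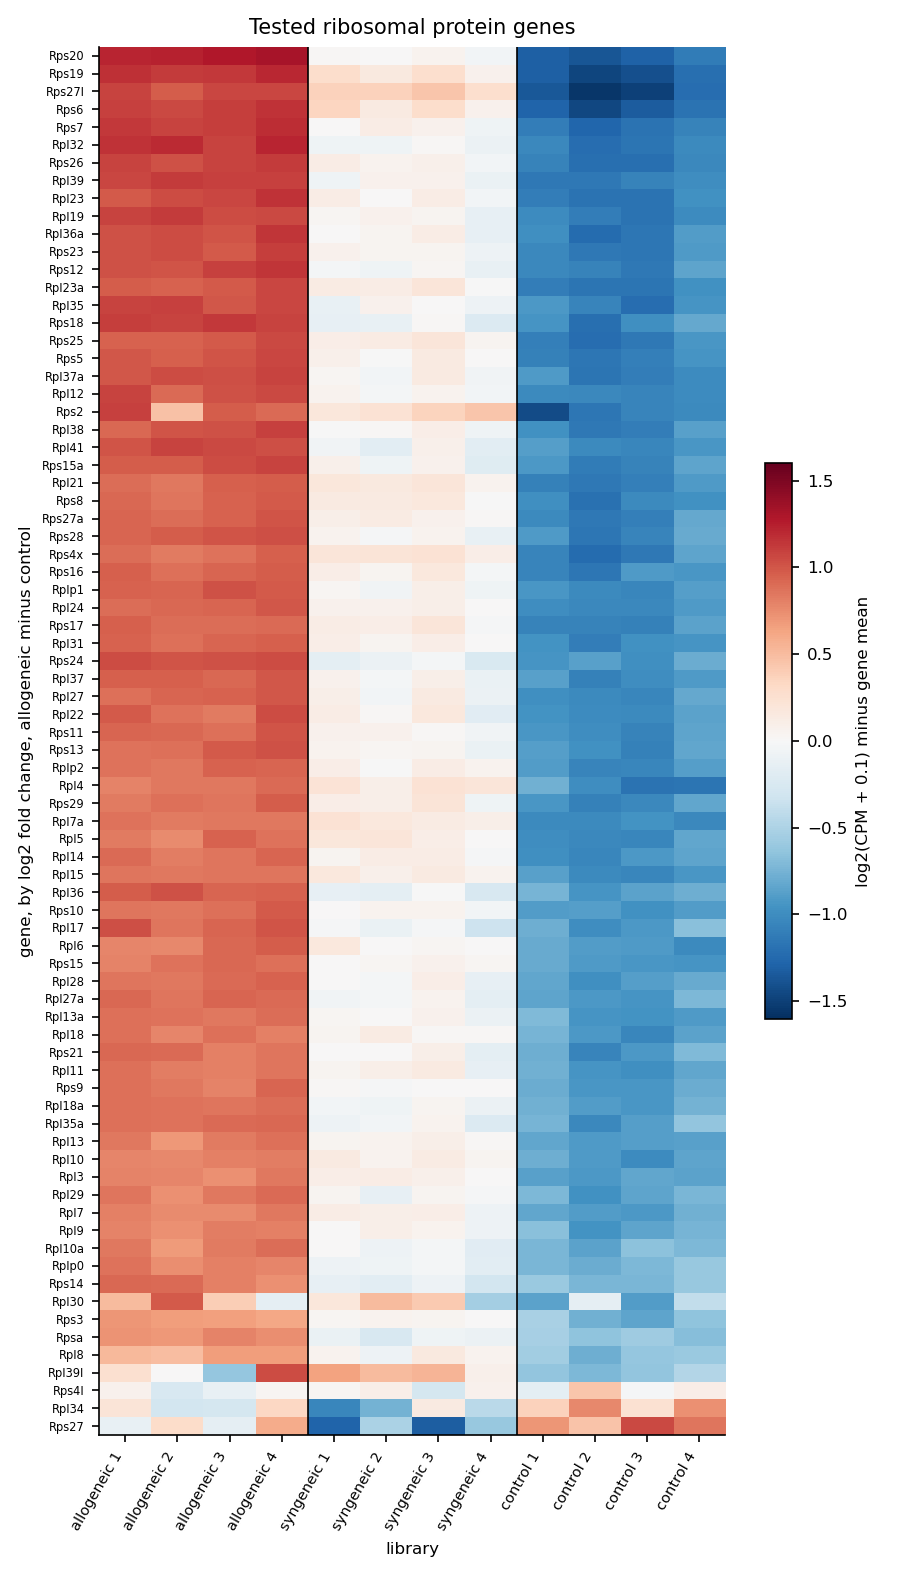
Level of the 78 tested members in each of the 12 libraries, as log2(CPM + 0.1) minus the gene's mean over all libraries, with genes ordered by their log2 fold change in allogeneic minus control. The allogeneic columns are red, the syngeneic columns pale and the control columns blue for nearly every gene. Near the foot, Rpl30, Rpl39l, Rps4l, Rpl34 and Rps27 do not keep this order in every library. The group means of Rpl30 do, at 0.465, 0.361 and 0.178 CPM in allogeneic, syngeneic and control libraries.

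Between allogeneic and syngeneic microglia, Rps20, a protein of the head of the small subunit, had the largest called change. It stood at 790, 797, 819 and 846 CPM in allogeneic libraries and at 341, 339, 351 and 328 CPM in syngeneic libraries. The lowest allogeneic library was above the highest syngeneic library, with a log2 fold change of 1.26 (SE 0.07, edgeR adjusted p = 1.42e-10). Rpl32, a large subunit protein, stood at 1830, 1878, 1740 and 1907 CPM in allogeneic libraries and at 784, 782, 828 and 770 CPM in syngeneic libraries. It rose by 1.22 on the log2 scale (SE 0.06, edgeR adjusted p = 1.01e-10). Rps18, which contacts transfer RNA from the head of the small subunit, stood at 574, 562, 586 and 565 CPM in allogeneic and 243, 246, 270 and 228 CPM in syngeneic libraries and rose by 1.21 (SE 0.08, edgeR adjusted p = 2.47e-09). The 4 libraries of each group were clearly apart for both genes.

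The smallest called changes in that comparison were in Rpl8, Rps2 and Rps3. Rpl8, which lies beside the catalytic centre of the large subunit, stood at 761, 746, 844 and 838 CPM in allogeneic and 549, 501, 590 and 550 CPM in syngeneic libraries. Its groups did not overlap, and it rose by a log2 fold change of 0.54 (SE 0.07, edgeR adjusted p = 1.66e-05). Rps2, a protein of the messenger RNA entry channel, had the largest coefficient of variation among allogeneic libraries of the 73 called members. It stood at 195, 126, 179 and 171 CPM in allogeneic and 103, 107, 117 and 124 CPM in syngeneic libraries. The lowest allogeneic library lay just above the highest syngeneic library, and the log2 fold change was 0.57 (SE 0.12, edgeR adjusted p = 0.00292). This call was lost once GC content and length were corrected for by an offset (log2 fold change 0.35, edgeR adjusted p = 0.088). Rps3, its neighbour at the entry channel, rose by 0.63 (SE 0.06).

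Between syngeneic and control microglia the order of the members was different at both ends. Rps27l, a p53-inducible paralog of Rps27, stood at 153, 154, 162 and 144 CPM in syngeneic libraries and 46.5, 40.2, 42.1 and 51.0 CPM in control libraries. Its log2 fold change was the largest, at 1.77 (SE 0.09, edgeR adjusted p = 1.75e-11), and was 0.86 with the GC and length offset, where Rps19 with 1.51 was the largest. Rps19, which is needed to mature the small subunit and is mutated in human Diamond-Blackfan anaemia, stood at 1013, 928, 1008 and 875 CPM in syngeneic against 338, 302, 314 and 361 CPM in control libraries, a log2 fold change of 1.54 (SE 0.07, edgeR adjusted p = 5.67e-12). Rps6, the substrate of the S6 kinases downstream of mTORC1, stood at 489, 425, 469 and 403 CPM in syngeneic against 159, 140, 154 and 171 CPM in control libraries (log2 fold change 1.52, SE 0.08, edgeR adjusted p = 2.05e-11). For all 3 genes the syngeneic libraries were far above the control libraries. Rps2, near the bottom in allogeneic minus syngeneic, was near the top here with 1.47 (SE 0.13).

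The smallest called changes against control were in Rpsa and Rps14. Rpsa, a small subunit protein also known as the laminin receptor precursor, stood at 447, 402, 457 and 448 CPM in syngeneic and 332, 307, 324 and 300 CPM in control libraries. The groups did not overlap, and Rpsa rose by a log2 fold change of 0.47 (SE 0.06, edgeR adjusted p = 3.78e-06). Rps14 rose by 0.49 (SE 0.07) and Rplp0 by 0.62 (SE 0.06). In allogeneic minus syngeneic, Rpsa with 0.87 and Rplp0 with 0.88 were near the median of the members, and Rps14 with 1.01 was at their upper quartile. With the GC and length offset, Rpsa had 0.82 in syngeneic minus control, above the member median of 0.688, so its place at the bottom depends on the processing. Whether a member's change differed between these 2 comparisons, which share the syngeneic libraries, was not tested.

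**Figure D3:**
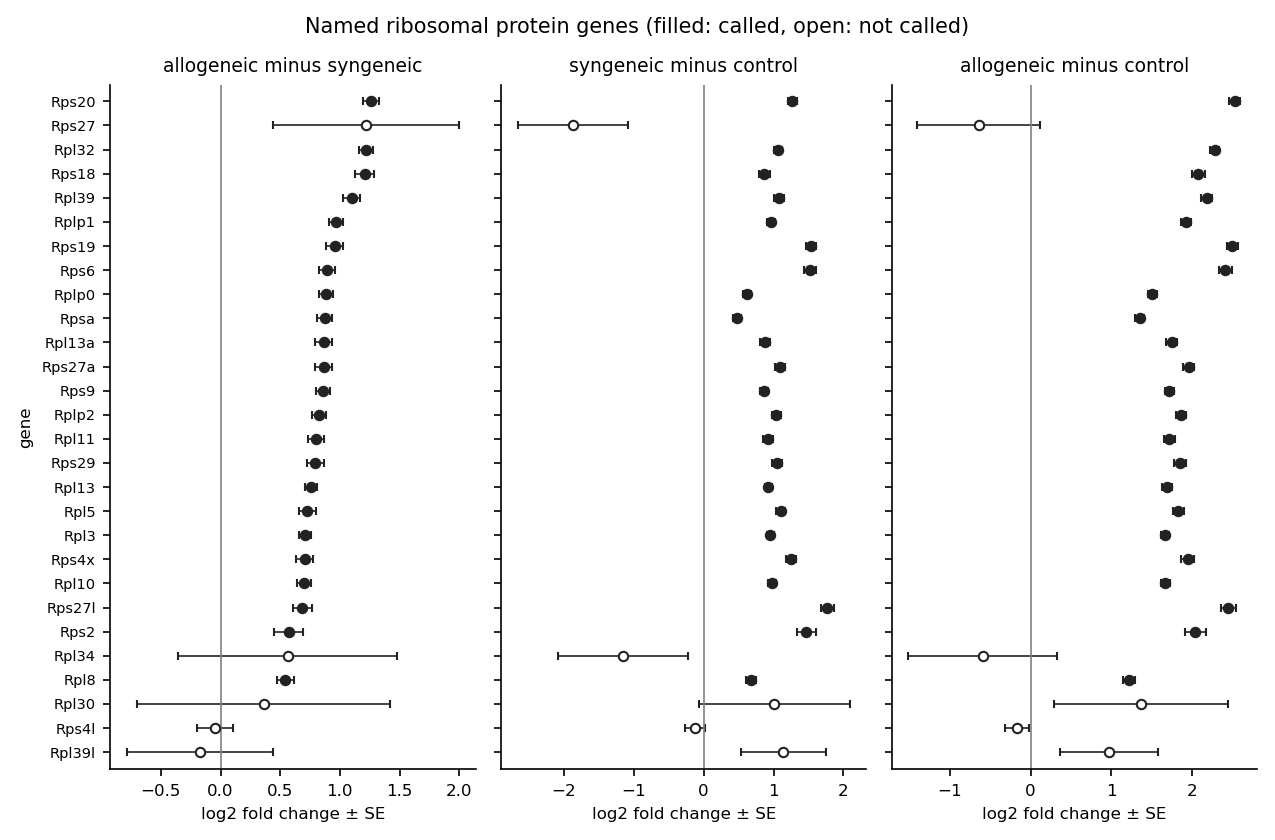
Log2 fold change with its SE for the 28 members that the naming rule gives, in each comparison, ordered by allogeneic minus syngeneic. Filled points were called and open points were not. Rps20 leads allogeneic minus syngeneic at 1.26, Rps27l leads syngeneic minus control at 1.77, and the open points of Rps27, Rpl34, Rpl30 and Rpl39l have wide errors.

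Over the whole range from control to allogeneic microglia, Rps20, Rps19, Rps27l and Rps6 moved most, with log2 fold changes of 2.53, 2.5, 2.45 and 2.41 in allogeneic minus control (SE 0.07 to 0.09). With the GC and length offset these values were 2.38, 2.18, 1.09 and 1.64. The transcript model taken for Rps20 was 3706 bases long, against a median of 780 bases over the members. The offset uses this length, so the place of Rps20 under the offset depends on the model chosen. Rps19 stood at 1873, 1808, 1829 and 1918 CPM in allogeneic libraries. Rpl8 rose by 1.22, Rpsa by 1.35 and Rps3 by 1.35 in this comparison, the least of the called members. With the offset these 3 had 1.01, 1.64 and 1.26, and the least were Rpl9 with 0.63, Rpl35a with 0.65 and Rpl17 with 0.73. As a share of all ribosomal protein counts, which does not depend on library scaling, Rps19 made up 3.01 ± 0.0291% in allogeneic, 2.86 ± 0.101% in syngeneic and 1.94 ± 0.0603% in control libraries. Rps20 made up 1.32 ± 0.0237% in allogeneic, 1.02 ± 0.0134% in syngeneic and 0.831 ± 0.0409% in control libraries. Both shares were thus highest in allogeneic libraries, and those of Rpl8 and Rps3 lowest. The share of Rpl8 was 1.29 ± 0.0696% in allogeneic, 1.64 ± 0.103% in syngeneic and 2.02 ± 0.0940% in control libraries. The share of Rps3 was 2.17 ± 0.0867% in allogeneic, 2.59 ± 0.0822% in syngeneic and 3.08 ± 0.191% in control libraries (SD, n = 4 each). Across the 73 called members the mean share in allogeneic over that in control libraries ran from 0.640 to 1.59, with a median of 1.03. Shares sum to a fixed total in each library, so this median cannot test whether the composition was stable. Without overlap, 23 of these shares were higher and 18 lower in allogeneic than in control libraries, and 32 overlapped. The composition of the pool thus shifted too. No member's share rose as much as the share of all members in raw counts, which was 2.82-fold.

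By role, all tested members of each group described here rose in each comparison. Of the stalk proteins that recruit elongation factors to the large subunit, Rplp0, Rplp1 and Rplp2 rose by 0.88, 0.97 and 0.82 in allogeneic minus syngeneic (SE 0.06 each). Rplp1 stood at 1353, 1345, 1426 and 1394 CPM in allogeneic, 722, 675, 751 and 671 CPM in syngeneic and 371, 349, 340 and 383 CPM in control libraries. The 3 groups were apart in each library. Rpl5 and Rpl11, which bind 5S ribosomal RNA and, when free, hold back the p53 ligase MDM2, rose by 0.73 and 0.80 in allogeneic minus syngeneic and by 1.10 and 0.92 in syngeneic minus control (SE 0.07 each). Rpl5 stood at 574, 546, 620 and 590 CPM in allogeneic, 366, 369, 347 and 325 CPM in syngeneic and 162, 158, 156 and 181 CPM in control libraries.

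Rps6 itself stood at 826, 803, 828 and 858 CPM in allogeneic libraries and rose by 0.89 (SE 0.07) in allogeneic minus syngeneic. Rpl13a, which leaves the ribosome after interferon-gamma treatment of human monocytic cells to join the translation-blocking GAIT complex, stood at 711, 706, 697 and 720 CPM in allogeneic, 396, 389, 407 and 364 CPM in syngeneic and 236, 202, 200 and 206 CPM in control libraries. It rose by 0.86 in allogeneic minus syngeneic and 0.88 in syngeneic minus control (SE 0.07 each), near the median of the members. Rps27a, made as a fusion with ubiquitin, rose by 0.86 and 1.09 in these comparisons, and the second value was 0.42 with the GC and length offset. Rpsa, Rpl13a and Rps27a were within a few hundredths of a log2 unit of each other in allogeneic minus syngeneic.

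Among proteins that line the nascent chain exit tunnel or its rim, 9 of the 10 listed members were tested and all 9 rose in each comparison, by 0.66 to 1.10 in allogeneic minus syngeneic, though with the offset Rpl17 had -0.02 in syngeneic minus control and was not called (edgeR adjusted p = 0.837). Rpl39, which lines the tunnel, stood at 349, 363, 357 and 357 CPM in allogeneic, 159, 175, 175 and 155 CPM in syngeneic and 75.4, 75.5, 79.2 and 84.1 CPM in control libraries. It rose by 1.10 in allogeneic minus syngeneic (SE 0.07). Of proteins at the decoding site and messenger channel, 5 of 5 tested rose in each comparison, by 0.57 to 1.03 in allogeneic minus syngeneic, with the loss of the Rps2 call under the offset given above. The 9 members mutated in human Diamond-Blackfan anaemia on the list all rose too, by 0.73 to 1.15 in allogeneic minus syngeneic and 0.75 to 1.54 in syngeneic minus control. The lowest of the second range, Rpl35a, was not called with the offset (0.14, edgeR adjusted p = 0.173).

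Levels per kilobase of transcript differed widely among members that belong to the same particle. Averaged over all 12 libraries, Rps29, a small zinc-binding protein of the small subunit, led with 2492 CPM per kilobase, followed by Rpl32 with 1940, Rps9 with 1838, Rplp1 with 1633 and Rpl13 with 1602. The median over the 73 called members was 550 CPM per kilobase and the lowest was 39.7, for Rpl29. Rps29 stood at 1514, 1568, 1543 and 1665 CPM in allogeneic, 920, 908, 985 and 814 CPM in syngeneic and 447, 403, 417 and 480 CPM in control libraries. Its level was thus apart in all 3 groups, and its log2 fold changes of 0.79 in allogeneic minus syngeneic and 1.05 in syngeneic minus control (SE 0.07 each) were ordinary for a member. Over the 73 genes, Spearman's rho between the log2 fold change and the level per kilobase was 0.00688 in allogeneic minus syngeneic and 0.0137 in syngeneic minus control, across genes that share the same libraries. Lengths depend on the transcript model chosen, and the reads may be shared with copies, so these levels are approximate.

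Annotated start sites were searched for the pyrimidine run for which these messages are known. RefSeq start-site windows of 300 bases on GRCm38.p6, from 250 bases before to 50 bases after the annotated start, were at hand for 60 of the 81 members. At 13 of these 60 genes (21.7%) an annotated start fell on a C followed by at least 4 further C or T bases on the transcribed strand, against 3.01% of all 27025 genes in the table. The runs were 5 to 13 bases long. The sequences below, 10 bases before and 20 bases from the start, show where the run lies, with the unbroken C and T bases from the start in capitals.
Rps6 (chr4:86857348-86857377, minus strand): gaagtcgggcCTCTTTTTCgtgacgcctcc
Rps18 (chr17:33955646-33955675, minus strand): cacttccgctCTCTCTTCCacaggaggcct
Rpl15 (chr14:18270967-18270996, minus strand): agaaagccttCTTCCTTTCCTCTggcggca
Rpl28 (chr7:4792955-4792984, plus strand): tctcgtgtctCTCTTTCCgtctccggccgc
Rpl35 (chr2:39005112-39005141, minus strand): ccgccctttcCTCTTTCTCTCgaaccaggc
Rpl35a (chr16:33056472-33056501, plus strand): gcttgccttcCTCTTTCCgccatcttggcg
Rpl38 (chr11:114668570-114668599, plus strand): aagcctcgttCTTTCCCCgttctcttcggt
Rplp2 (chr7:141447641-141447670, plus strand): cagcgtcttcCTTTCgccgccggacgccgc
Rps10 (chr17:27635225-27635254, minus strand): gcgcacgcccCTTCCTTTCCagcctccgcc

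Of the 13 genes with such a start, 12 were called higher in each comparison, with a median log2 fold change of 0.89 in allogeneic minus syngeneic, 0.96 in syngeneic minus control and 1.82 in allogeneic minus control. Among the 47 other members in the table, 44 were tested and 42 called in each comparison, with medians of 0.87, 1.0 and 1.91. A run of at least 8 C or T bases lay within 40 bases of a start at 47 of the 60 genes (78.3%), against 32.6% of all genes. The letters CCGGAAG, which ETS-family factors such as GABP bind, were found on either strand of the 300-base window at 25 of the 60 genes (41.7%), against 9.93% of all genes. The letters GCCATCTT, part of the YY1 motif, were found on either strand at 5 of 60 genes (8.33%), against 3.19% of all genes. Annotated starts can be some bases off the true start, so a start that misses the pattern shows only that these letters are not at that position.
For contrast, the paralogs Rps27l and Rpl39l, shown because Rps27l had the largest change in syngeneic minus control and Rpl39l the lowest value in allogeneic minus syngeneic (not called), have windows without a C at the start.
Rps27l (chr9:66946076-66946105, plus strand): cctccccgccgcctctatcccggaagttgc
Rpl39l (chr16:10170218-10170247, plus strand): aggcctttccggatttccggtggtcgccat

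The 5 tested members that were not called were Rpl30, Rpl34, Rps27, Rpl39l and Rps4l. Rpl30, Rpl34 and Rps27 encode ordinary ribosomal proteins, yet they had almost no counts. Rpl30 had 15, 26, 15 and 9 counts in allogeneic, 16, 22, 16 and 7 counts in syngeneic and 5, 10, 6 and 8 counts in control libraries. Rpl34 had 23, 18, 17 and 27 counts in allogeneic, 11, 15, 25 and 17 counts in syngeneic and 33, 42, 38 and 42 counts in control libraries. Rps27 had 26, 42, 28 and 48 counts in allogeneic, 14, 28, 11 and 22 counts in syngeneic and 62, 48, 101 and 66 counts in control libraries. Rpl26, at the tunnel rim, was listed at 0 in every library, as was Rpl10l, a paralog known from testis. The median called member had 550 CPM per kilobase, so the low rows stand apart by orders of magnitude, and these counts may not stand for the level of the genes.

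Rps27 had a log2 fold change of 1.22 (SE 0.78, edgeR adjusted p = 0.338) in allogeneic minus syngeneic and of -1.87 (SE 0.79, edgeR adjusted p = 0.0556) in syngeneic minus control. Under 6 alternatives the second value was called lower. Rpl34 had -1.16 (SE 0.93) and Rpl30 1.01 (SE 1.08) in syngeneic minus control, with adjusted p-values of 0.32 and 0.461 from edgeR. The SE of these genes was over 10 times that of a well-counted member. Rpl3l, a paralog of Rpl3 known from muscle, had 24 counts in control 4, 3 counts in allogeneic 3 and 0 elsewhere, and was not tested.

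Paralogs were set against their parents as a ratio of counts within each library, which library scaling does not touch. Rps4l, a paralog of Rps4x, stood at 40.1, 32.2, 35.2 and 39.2 CPM in allogeneic, 39.0, 41.0, 31.6 and 40.1 CPM in syngeneic and 34.2, 52.0, 37.8 and 41.2 CPM in control libraries. The groups overlapped throughout. Its log2 fold changes were -0.05, -0.12 and -0.17 in allogeneic minus syngeneic, syngeneic minus control and allogeneic minus control (SE 0.14 to 0.15), with edgeR adjusted p-values of 0.878, 0.507 and 0.328. With library totals the last value was -0.55 and called lower (edgeR adjusted p = 0.00513). Rps4x meanwhile stood at 1071, 1030, 1053 and 1127 CPM in allogeneic, 659, 666, 679 and 622 CPM in syngeneic and 278, 247, 261 and 322 CPM in control libraries. Rps4l counts therefore came to 3.42 ± 0.259% of Rps4x counts in allogeneic, 5.79 ± 0.791% in syngeneic and 15.2 ± 4.05% in control libraries (SD, n = 4 each).

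Over 6 pairs and 3 comparisons, 18 ratios were tested with a two-sided exact permutation test, whose smallest p with 4 against 4 libraries is 0.0286 (0.0396 after Benjamini-Hochberg adjustment over the 18). The ratio of Rps4l to Rps4x differed by -0.75, -1.37 and -2.12 log2 units in allogeneic minus syngeneic, syngeneic minus control and allogeneic minus control, each at that smallest exact p with no overlap. The ratio of Rpl7l1, an Rpl7-like gene outside the naming rule, to Rpl7 differed by -0.72, -1.2 and -1.92, also at the smallest exact p. Rpl7l1 counts were 8.63 ± 0.781% of Rpl7 counts in allogeneic, 14.2 ± 1.64% in syngeneic and 32.8 ± 4.44% in control libraries. The ratio of Rpl36al to Rpl36a differed by -0.41, -0.32 and -0.73 at the smallest exact p, with 49.6 ± 3.64%, 65.9 ± 2.48% and 82.5 ± 8.18% in allogeneic, syngeneic and control libraries. For these 3 pairs the paralog lagged behind its parent in counts not corrected for GC content and length. With the GC and length offset, paralog and parent lay closer together in allogeneic minus control, in the same direction. Rps4l then had -0.41 and Rps4x 1.16, Rpl7l1 -0.14 and Rpl7 0.81, and Rpl36al 0.38 and Rpl36a 0.86.

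The ratio of Rpl39l, a paralog of Rpl39 best known from testis, differed by -1.39 in allogeneic minus syngeneic and by -1.35 in allogeneic minus control at the smallest exact p, and by 0.04 in syngeneic minus control (exact p = 0.714). Rpl39l had 59, 58, 34 and 112 counts in allogeneic, 111, 104, 84 and 65 counts in syngeneic and 39, 34, 49 and 42 counts in control libraries. The allogeneic values varied most, and the log2 fold change of Rpl39l in allogeneic minus syngeneic was -0.17 (SE 0.61, edgeR adjusted p = 0.899). The ratio of Rpl22l1 to Rpl22 differed by 0.15, 0.13 and 0.27 with exact p-values of 0.0571, 0.314 and 0.0857, and these groups overlapped. Rpl22l1 counts were 54.3 ± 4.96%, 48.9 ± 0.944% and 45.1 ± 6.61% of Rpl22 counts in allogeneic, syngeneic and control libraries. The ratio of Rps27l to Rps27 differed by 3.67 in syngeneic minus control and 3.12 in allogeneic minus control at the smallest exact p, but the near-empty Rps27 row makes this ratio hard to read.

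**Figure D4:**
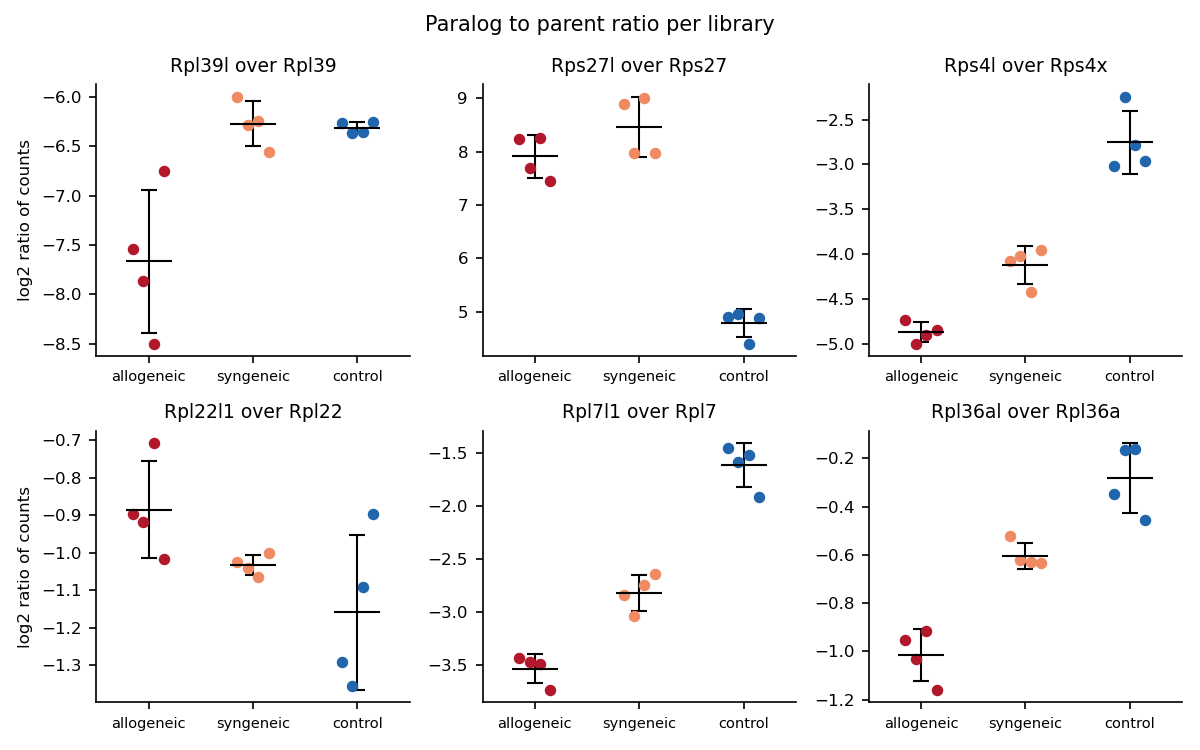
Log2 ratio of paralog to parent counts in each library for 6 pairs, with the mean and SD of 4 libraries. The ratios of Rps4l, Rpl7l1 and Rpl36al lie lowest in allogeneic and highest in control libraries, and the 2 groups of each comparison do not overlap for these pairs.

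Several ribosomal protein genes whose symbols the rule did not take were called higher as well. Fau, whose product is made fused to a ubiquitin-like protein, rose by 0.84 in allogeneic minus syngeneic (SE 0.06), and Gnb2l1, the older symbol of the small subunit scaffold RACK1, by 0.90 (SE 0.06). Fau averaged 1185 ± 11 CPM in allogeneic, 660 ± 34.8 CPM in syngeneic and 360 ± 17.7 CPM in control libraries (SD, n = 4 each). Rps3a1, Rpl22l1 and Rpl36al were called higher too, by 0.75, 1.05 and 0.63 (0.19 and not called with the offset for Rpl36al). Rpl7l1 had 0.01 (SE 0.09, edgeR adjusted p = 0.975) in allogeneic minus syngeneic and fell by 0.29 on the log2 scale in syngeneic minus control (edgeR adjusted p = 0.0164). That call was lost without syngeneic 2 (-0.23), without control 1 (-0.22) and with the offset (-0.15). Rps27rt, a retrogene of Rps27, was listed at 0.

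Pseudogene and retrogene rows bear on how reads were shared. Of 9 such rows of this family, 5 were tested. Rpl37rt averaged 16.3 ± 1.87 CPM in allogeneic, 6.74 ± 1.17 CPM in syngeneic and 2.85 ± 0.0952 CPM in control libraries and was called higher in each comparison. Rpl14-ps1 averaged 18.7 ± 1.5 CPM in allogeneic, 8.60 ± 1.61 CPM in syngeneic and 5.05 ± 0.698 CPM in control libraries and was called likewise. Their log2 fold changes in allogeneic minus control, 2.51 and 1.89, were of the size of the members'. Rps15a-ps4, Rps15a-ps6 and Rps19-ps3, each under 3 CPM in every group mean, were not called. Whether reads of functional genes were counted in these rows was not tested.

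Mitochondrial ribosomal protein genes, which build the separate ribosome of mitochondria, had smaller median changes. Of 77 tested, 13 were called higher and 1 lower in allogeneic minus syngeneic (median log2 fold change 0.214), 42 higher and 7 lower in syngeneic minus control (0.414), and 50 higher and 7 lower in allogeneic minus control (0.593). Over all tested genes, 10.1% were called higher and 6.38% lower in allogeneic minus syngeneic, 26.4% and 25.6% in syngeneic minus control, and 28.2% and 29.1% in allogeneic minus control. With library totals the mitochondrial medians were 0.0129, 0.248 and 0.224. With the GC and length offset they were 0.022, 0.195 and 0.22. The calls with the offset were 6, 31 and 34 higher and 1, 7 and 11 lower. The cytosolic members had medians of 0.88, 0.989 and 1.88 in the same comparisons, and of 0.582, 0.688 and 1.31 with the offset.

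Other translation genes with TOP starts rose as well. Of 16 tested, 13 were called higher and 0 lower in allogeneic minus syngeneic (median log2 fold change 0.60), 13 higher and 2 lower in syngeneic minus control (0.938), and 14 higher and 2 lower in allogeneic minus control (1.62). The shares of all tested genes called higher and lower in these comparisons were 10.1% and 6.38%, 26.4% and 25.6%, and 28.2% and 29.1%. Npm1, a nucleolar chaperone of ribosome assembly, averaged 1131 ± 46.3 CPM in allogeneic, 677 ± 34.2 CPM in syngeneic and 258 ± 15.9 CPM in control libraries (SD, n = 4 each), and rose by 0.74 in allogeneic minus syngeneic (SE 0.06). The elongation factor genes Eef1a1 and Eef1b2 rose by 0.68 and 0.91 in that comparison. The initiation factor gene Eif4b and the splicing factor gene Hnrnpa1 were the genes called lower against control, with -0.58 and -1.70 in syngeneic minus control. In allogeneic minus control Eif4b had -0.30 (edgeR adjusted p = 0.0379), a call lost with RLE factors (-0.26), with DESeq2 (-0.26), with the offset (0.04), and without allogeneic 1, 3 or 4 or control 1 or 3 (-0.31 to -0.26). Hnrnpa1 averaged only 2.71 ± 0.330 CPM in allogeneic, 1.99 ± 0.170 CPM in syngeneic and 6.45 ± 0.605 CPM in control libraries.

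The machinery that regulates and assembles ribosomes did not rise as a block. Of 16 genes of mTORC1, LARP1 and MYC control, 1 was called higher and 1 lower in allogeneic minus syngeneic, 2 higher and 7 lower in syngeneic minus control, and 2 higher and 9 lower in allogeneic minus control. Their median log2 fold changes were -0.118, -0.363 and -0.742, so most calls against control were falls. Over all tested genes, the shares called higher and lower in the 3 comparisons were 10.1% and 6.38%, 26.4% and 25.6%, and 28.2% and 29.1%. Eif4ebp1, a translation repressor that mTORC1 switches off, rose by 0.48 (SE 0.12, edgeR adjusted p = 0.0112) and Tsc2, a brake on mTORC1, fell by 0.64 on the log2 scale (SE 0.20, edgeR adjusted p = 0.0348) in allogeneic minus syngeneic. The first call was lost with library totals (0.28). The second was lost with limma-voom (-0.62), with the offset (-0.50), and with any library of the compared groups left out except allogeneic 4 and syngeneic 1 (-0.68 to -0.55). The S6 kinase genes Rps6kb1 and Rps6kb2 fell by 0.67 and 2.53 in syngeneic minus control on the log2 scale, and Myc fell by 1.2. With the offset Rps6kb2 had -1.91. Rps6kb2 averaged 6.61 ± 2.71 CPM in allogeneic, 7.16 ± 2.10 CPM in syngeneic and 41.4 ± 5.96 CPM in control libraries. The kinase gene Mtor had -0.65 in allogeneic minus syngeneic (SE 0.26, edgeR adjusted p = 0.101). It was called lower there with library totals (-0.86, edgeR adjusted p = 0.0236). In allogeneic minus control, the calls of Mtor (-0.19), Tsc2 (-0.29) and Myc (-0.46) were lost with the offset. Rps6kb2 was still called lower there with the offset (-1.91).

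Of 43 ribosome assembly factors, 3 were called higher and 1 lower in allogeneic minus syngeneic, 18 higher and 11 lower in syngeneic minus control, and 19 higher and 11 lower in allogeneic minus control. Their median was 0.0679 in allogeneic minus syngeneic and -0.137 with library totals. For this and the lists below, the shares of all tested genes called higher and lower were 10.1% and 6.38% in allogeneic minus syngeneic. They were 26.4% and 25.6% in syngeneic minus control and 28.2% and 29.1% in allogeneic minus control. Nsa2 and Rpf2, factors of large subunit assembly, rose by 0.40 and 0.44 in allogeneic minus syngeneic, and Ncl, the nucleolar protein nucleolin, by 0.19. With library totals none of these 3 was called (0.20, 0.23 and -0.01). The Rpf2 call was also lost without allogeneic 1 or 3 or syngeneic 1 or 3 (0.38 to 0.42), and with the offset (0.27). The Ncl call was also lost with no filter (0.19), and without any library of either group except allogeneic 2 (0.17 to 0.21). Of 19 genes of RNA polymerase I, which transcribes ribosomal RNA, and its factors, 3 were called higher and 1 lower in allogeneic minus syngeneic, 8 higher and 6 lower in syngeneic minus control, and 7 higher and 4 lower in allogeneic minus control. Polr1d and Taf1d rose by 0.39 and 0.95 and Taf1c fell by 1.98 on the log2 scale in allogeneic minus syngeneic. The Polr1d call was lost with library totals (0.19), with the offset (0.23) and without allogeneic 2 or 3 or syngeneic 1, 3 or 4 (0.30 to 0.40). The Taf1c call was lost with DESeq2, in the fit of only these groups, with no filter, and without allogeneic 3 or 4 or syngeneic 1, 2 or 3 (-2.18 to -1.62). Its value was -2.86 without allogeneic 2 and -3.10 with limma-voom, called in both. Of 6 dedicated chaperones of ribosomal proteins, 0 were called in allogeneic minus syngeneic by edgeR, DESeq2 or limma-voom (1, Bccip, at an unadjusted p under 0.05 with edgeR, and called higher by 0.33 in the edgeR fit of only these groups) and 3 higher in the other comparisons, among them Bccip with 0.63 in syngeneic minus control and -0.03 with the offset.

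Markers of other cells also differed between the groups. Of the 10 microglia markers, 1 was called higher and 7 lower in allogeneic minus syngeneic, 6 higher and 4 lower in syngeneic minus control, and 3 higher and 7 lower in allogeneic minus control. The shares of all tested genes called higher and lower in these comparisons were 10.1% and 6.38%, 26.4% and 25.6%, and 28.2% and 29.1%. The 10 monocyte and engrafted macrophage markers summed to 321 to 484 CPM in allogeneic libraries. Their sums were 44.6 to 80.1 CPM in syngeneic and 18.7 to 21.98 CPM in control libraries, the same order as the ribosomal protein genes. Of 9 tested, 4 were called higher in allogeneic minus syngeneic, 5 in syngeneic minus control and 7 in allogeneic minus control. In allogeneic minus control, 1 was called lower. The 5 choroid plexus markers summed to 339 to 605 CPM in allogeneic, 1092 to 1928 CPM in syngeneic and 12.9 to 96.7 CPM in control libraries, another order, with 1 called lower in allogeneic minus syngeneic and 5 called higher in syngeneic minus control. The 9 T cell markers summed to 0.694 to 2.62 CPM in allogeneic and 0.278 to 3.37 CPM in syngeneic libraries. In control libraries the sum was 1.39 to 2.53 CPM. In all syngeneic libraries 7 of the 9 stood at 0, among them Cd3e, Cd3g and Cd4. The same held for 3 in control libraries, among them Cd3e and Cd3g, and for 2 in allogeneic libraries. B cell markers summed to 18.0 to 27.6 CPM in allogeneic, 13.4 to 27.1 CPM in syngeneic and 19.1 to 32.8 CPM in control libraries, with Pax5 at 0 in every library. Neutrophil markers came to 1.29 to 7.21 CPM in allogeneic, 0.646 to 5.26 CPM in syngeneic and 0.0531 to 28.1 CPM in control libraries. Erythroid markers came to 1.495 to 6.711 CPM in allogeneic, 0.0215 to 8.27 CPM in syngeneic and 2.38 to 14.8 CPM in control libraries, with Hba-a1, Hba-a2, Hbb-b1 and Hbb-b2 listed at 0 throughout. Astrocyte markers summed to 25.5 to 41.2 CPM in allogeneic, 24.8 to 41.1 CPM in syngeneic and 1.47 to 7.91 CPM in control libraries, with 1 of 6 called higher in allogeneic minus syngeneic, 4 in syngeneic minus control and 3 in allogeneic minus control. Neuron markers summed to 6.02 to 10.6 CPM in allogeneic, 7.07 to 14.2 CPM in syngeneic and 1.62 to 3.07 CPM in control libraries, with 3 of 6 called higher in syngeneic minus control and 2 in allogeneic minus control. For both lists the control libraries lay below the others without overlap. Oligodendrocyte markers summed to 56.9 to 63.1 CPM in allogeneic, 44.8 to 79.2 CPM in syngeneic and 52.0 to 65.8 CPM in control libraries. Of 4 tested, 3 were called higher and 1 lower in each comparison against control, and 0 in allogeneic minus syngeneic. Endothelial markers summed to 14.2 to 27.7 CPM in allogeneic, 14.5 to 24.0 CPM in syngeneic and 19.9 to 29.7 CPM in control libraries. Of 4 tested, 1 was called higher in each comparison. In syngeneic minus control 2 were called lower, and in allogeneic minus control 1. In syngeneic minus control 1 B cell marker was called lower, and in allogeneic minus control 1 neutrophil marker. The part of any of these cells in the ribosomal protein result was not tested.

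Ribosomal protein transcripts are short, with a median length of 780 bases against 2730 bases over all tested genes, so length and base composition were set beside the changes. Across the 73 called members, Spearman's rho of the log2 fold change with length was -0.242 in allogeneic minus syngeneic, -0.0287 in syngeneic minus control and -0.214 in allogeneic minus control. Over all tested genes it was -0.203, -0.0591 and -0.121. With GC content the members gave -0.0829, -0.283 and -0.262 and all tested genes -0.0462, -0.308 and -0.289. All genes share the same 12 libraries, so these values only describe the table. With an offset for GC content and length fitted in each library, the median log2 fold change of the members was 0.582, 0.688 and 1.31 in the 3 comparisons, against medians over all genes of -0.00863, 0.033 and 0.0235. With it, 72, 71 and 73 of the 78 members were still called higher; Rpl17 and Rpl35a lost the call in syngeneic minus control, and Rpl17 then had -0.02. The offset moved the fold of 15 called members in syngeneic minus control and 31 in allogeneic minus control by more than 1.5 times.

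**Figure D5:**
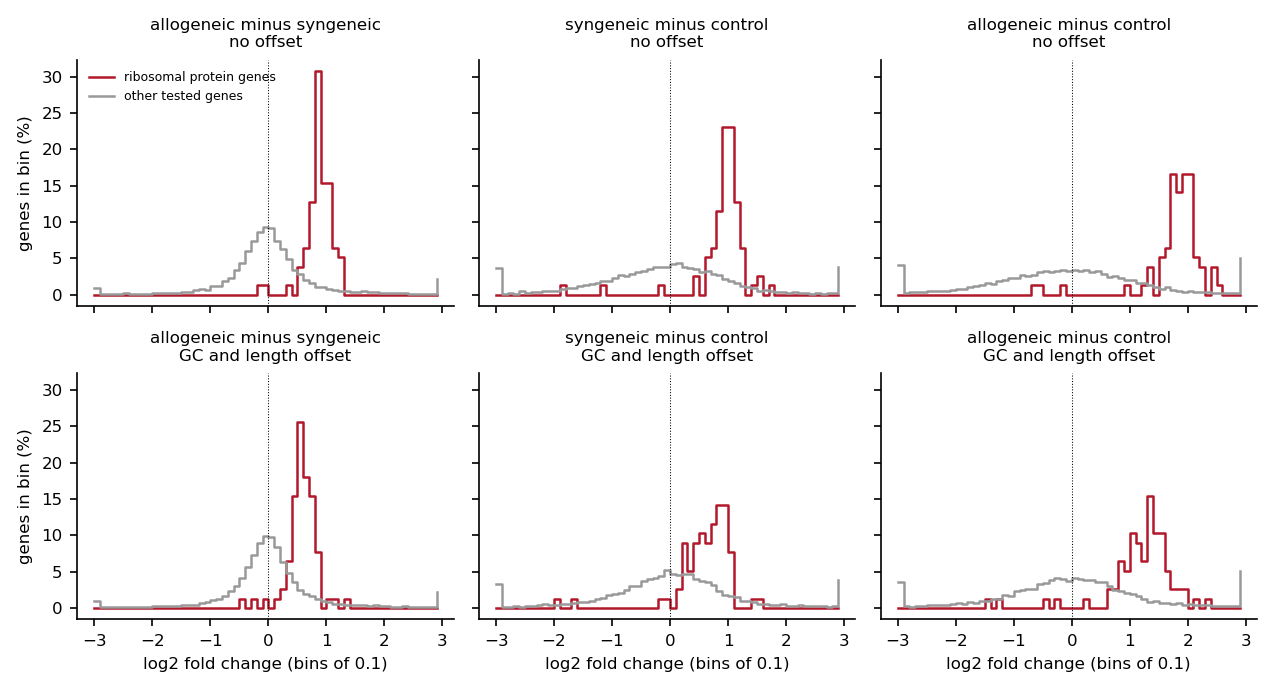
Distribution of log2 fold changes of the 78 tested ribosomal protein genes and of the other tested genes, in bins of 0.1, without (top) and with (bottom) the GC and length offset. Values beyond the axis are in the outermost bins. The members form a narrow peak at a median of 0.88 in allogeneic minus syngeneic, which moves to 0.582 with the offset and remains right of the other genes.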

How the data were processed

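The deposited table holds whole-number read counts per gene symbol for 12 libraries, made by the authors. The submitters' processing notes name Trimmomatic 0.36, STAR 2.5.2b and the mm9 build. How reads were counted (tool, annotation, strand, reads that match several places) is not given in the sources used here. Counts of ribosomal protein genes with near-identical copies are therefore uncertain.

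CPM and log2 fold changes came from edgeR 4.0.16 in R 4.3.3 (TMM scaling, genes kept by filterByExpr at its minimum of 10 counts, 1 robust quasi-likelihood fit of all 12 libraries), with Benjamini-Hochberg adjustment over all 12695 genes tested. A gene is called at an adjusted p under 0.05. The standard error is the fold change divided by the root of the F statistic. The method was tested on simulated data. Ratios of paralogs used exact permutation tests over libraries on counts plus 0.5. Lengths and GC content came from GENCODE M21, start-site sequences from RefSeq (GRCm38.p6).

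Members, lists and tests were chosen with earlier results of these data known. Among members, the naming rule takes the 4 largest and 4 smallest fold changes per comparison, members not called, the 5 highest levels per kilobase and members of set roles; from each other list it takes up to 3 genes by p in allogeneic minus syngeneic. Named outside it, after their values were seen, were Rps3, Rps14, Rpl17, Rpl9, Rpl29, Rpl35a, Rpl26, Rpl10l, Rpl3l, Rpl7, Rpl22, Rpl36a, Rpl7l1, Rpl22l1, Rpl36al, Rps3a1, Rps6kb1, Rps6kb2, Myc, Eif4b, Hnrnpa1, the pseudogene and retrogene rows and members printed only with their start sites. Alternatives were RLE factors, library totals, TMM factors without the members, other filters, DESeq2 1.42.0, limma-voom (limma 3.58.1), only the compared groups, a replicate block, an offset for GC content and length (loess span 0.3), and each library left out. Results for 1 gene of the list of ribosomal protein genes outside the rule are not reported here.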

Additional observations from a re-analysis of the deposited data

Results flagged for a closer look

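Over 29 quantities in 3 groups, 87 sets of 4 libraries were screened for a library far from the other 3, a screen that chance passes in about 1 of 20 sets. Rpl13a stood at 236 CPM in control 1, with the other control libraries at 200 to 206 CPM. Rps27l stood at 234 CPM in allogeneic 2, with the other allogeneic libraries at 249 to 252 CPM. Both genes were still called higher in each comparison with that library left out.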

How the results depend on the processing

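Every fit that kept all libraries except the GC and length offset, and every fit that left out a library, called the same 73 members higher in each comparison, and leaving out a library moved neither counts nor medians past the spread between libraries. With library totals only, the medians were 0.679 in allogeneic minus syngeneic, 0.82 in syngeneic minus control and 1.51 in allogeneic minus control, and the summed levels 54013 CPM in allogeneic and 19147 CPM in control libraries; with the offset the medians were 0.582, 0.688 and 1.31. The count of members called lower became 1 in syngeneic minus control with library totals, the filter of 1 CPM, DESeq2, limma-voom, only the compared groups and the offset (Rps27 each time), and 1 in allogeneic minus control with library totals and the offset (Rps4l). Among values called with or without the alternative, signs turned for Ncl in allogeneic minus syngeneic with library totals (-0.01). With the offset they turned for Rpl17 (-0.02), Bccip (-0.03) and Rpf2 (-0.12) in syngeneic minus control. They also turned for Eif4b (0.04) and Taf1d (-0.98) in allogeneic minus control with the offset. The cause was not tested. Of 4206 values of members over all alternatives, 4195 were counted as unchanged, which includes values called in neither fit that turned sign. With the offset, Rpl39l went from 0.97 to -0.28 in allogeneic minus control. Rpl30 went from 0.36 to -0.03 in allogeneic minus syngeneic. Paralog ratios kept their calls with a pseudocount of 1, and were not tested with the offset. With a library left out they are values with no test, and none moved past its spread. Replicate numbers of the titles did not pair the libraries (correlations of same-numbered deviations from -0.0202 to 0.0195). With the replicate block, 73 members were called higher in each comparison, with medians of 0.88, 0.982 and 1.88. Among the other genes named, the block lost the call of Ncl (0.20, edgeR adjusted p = 0.0529) and gained that of Mtor (-0.69, edgeR adjusted p = 0.0357), both in allogeneic minus syngeneic. The near-empty members have few counts, and how far depth or read assignment limits them was not tested.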
